A study of Mus musculus with 9 samples.

Results

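The genes described are 10 markers and regulators of blood vessels. They are *Pecam1* and *Cdh5*, proteins of the junctions between endothelial cells, the receptors *Tie1*, *Tek*, *Kdr* and *Flt1*, and the secreted ligands *Vegfa*, *Vegfb*, *Angpt1* and *Angpt2*. They were taken by gene symbol from a set named with earlier results of these data known, each symbol matched 1 of the 56748 genes in the authors' count table, and all 10 were among the 18510 genes that passed the expression filter of 0.5 CPM or more, that is counts per 1e6 counts of the library, in 1 library or more. The question addressed here is how the transcripts of the vessel wall and of its growth factors in epididymal adipose tissue, the visceral fat pad beside the epididymis, stood before and during weight loss. RNA of the whole tissue was sequenced from wild-type (WT) male C57BL/6J mice that started a high-fat diet (HFD) at 8 weeks of age and ate it for 8 weeks. Pre denotes mice at the end of HFD feeding, WL1 mice given standard diet (SD) for 1 further week and WL2 mice given SD for 2 further weeks, with 3 libraries per phase and 9 in all. All 3 phases therefore share the strain, the genotype, the sex and the earlier HFD, and the 9 libraries hold no mice kept on HFD through the later weeks, so that time on SD and age cannot be told apart. The labels do not say whether the 3 libraries of a phase came from separate mice, and the p-values measure the spread between these libraries.

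Blood vessels are lined by endothelial cells. Vascular endothelial growth factor A, encoded by *Vegfa*, drives the growth and permeability of vessels through the receptor VEGFR2 (*Kdr*), while VEGFR1 (*Flt1*) binds the same ligand strongly with weak signalling and is also the receptor of VEGF-B (*Vegfb*). Angiopoietin 1 (*Angpt1*) activates the receptor TIE2 (*Tek*) and keeps vessels quiescent, angiopoietin 2 (*Angpt2*) is made by endothelial cells and can oppose it, and TIE1 (*Tie1*) is a partner of TIE2 with no well-established ligand of its own. In adipose tissue, adipocytes are a known source of VEGF-A, and the capillary bed grows and regresses with the fat mass.

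Promoter windows are printed here because the receptors *Tie1* and *Tek* and the ligands *Vegfa* and *Vegfb* are the pairs whose levels are set against each other in the results. RefSeq windows on GRCm38.p6, running from 250 bases before to 50 bases after the start of the gene on its own strand, were matched for 6 of the 10 genes and not for *Pecam1*, *Cdh5*, *Angpt1* and *Angpt2*. In the first pair the capitals mark GGAAG on either strand, a form of the core of the motif bound by ETS transcription factors, a family that many endothelial genes use. Shorter or other forms of this core were not searched. *Tie1* lies on the minus strand at chr4:118489800-118490099 and *Tek* on the plus strand at chr4:94739039-94739338.
Tie1: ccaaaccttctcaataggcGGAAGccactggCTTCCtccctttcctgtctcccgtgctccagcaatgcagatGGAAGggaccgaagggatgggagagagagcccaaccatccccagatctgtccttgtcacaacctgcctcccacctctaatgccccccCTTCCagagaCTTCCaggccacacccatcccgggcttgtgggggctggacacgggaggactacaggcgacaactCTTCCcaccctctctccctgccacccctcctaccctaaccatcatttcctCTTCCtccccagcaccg
Tek: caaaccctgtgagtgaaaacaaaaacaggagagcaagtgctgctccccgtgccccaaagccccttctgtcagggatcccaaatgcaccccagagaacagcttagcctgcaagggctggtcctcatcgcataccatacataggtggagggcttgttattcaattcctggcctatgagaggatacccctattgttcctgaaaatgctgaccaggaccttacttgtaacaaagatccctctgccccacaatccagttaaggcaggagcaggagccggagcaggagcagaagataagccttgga
The *Tie1* window held GGAAG 7 times and the *Tek* window 0 times. Of the 32851 mouse windows of the same length, 71.4% held GGAAG at least once. Numbers of copies were not compared over all windows, for this motif or those below. The window of *Flt1* held GGAAG 3 times and that of *Kdr* 1 time. In the second pair the capitals mark GGGCGG on either strand, the GC box bound by Sp1 and related factors. Both genes lie on the minus strand, *Vegfa* at chr17:46032328-46032627, the first of its 2 windows, and *Vegfb* at chr19:6987602-6987901.
Vegfa: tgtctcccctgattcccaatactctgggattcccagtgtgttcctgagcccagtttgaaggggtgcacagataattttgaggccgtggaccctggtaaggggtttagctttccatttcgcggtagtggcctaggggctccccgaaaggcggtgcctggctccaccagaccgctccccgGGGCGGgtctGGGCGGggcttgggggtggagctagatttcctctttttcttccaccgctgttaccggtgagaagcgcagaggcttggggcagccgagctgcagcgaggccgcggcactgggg
Vegfb: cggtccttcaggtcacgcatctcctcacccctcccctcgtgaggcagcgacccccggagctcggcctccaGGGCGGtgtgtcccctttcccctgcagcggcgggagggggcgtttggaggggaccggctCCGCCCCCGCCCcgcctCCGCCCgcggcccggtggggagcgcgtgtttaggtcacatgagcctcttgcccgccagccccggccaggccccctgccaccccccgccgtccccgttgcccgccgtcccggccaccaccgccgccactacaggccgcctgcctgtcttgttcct
The *Vegfb* window held 4 GC boxes, *Vegfa* 2 in the window shown, *Flt1* 3 and *Kdr* 2, while *Tie1* and *Tek* held 0, and 35.7% of all windows held at least 1. GC content was 75.3% in the *Vegfb* window, 62% in the *Vegfa* window, 60.3% in the *Tie1* window and 52% in the *Tek* window. ACGTG, a form of the core of the hypoxia response element, was searched on both strands as well, and other forms of that core were not. ACGTG occurred 1 time in the second *Vegfa* window, at chr17:46025114-46025413, and in 0 of the 6 other windows, against 19.6% of all windows. Sequence outside these windows was not searched, so a hypoxia element further from a start would be missed. Whether any of these motifs relates to the level of a gene was not tested.

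The 9 libraries held 16434450 to 22729072 counts, which gave 2228 to 5317 counts of *Kdr* and 46 to 135 counts of *Angpt1* per library. Mitochondrial genes took 3.15% to 3.57% of the counts at Pre, 1.86% to 2.03% at WL1 and 2.28% to 2.88% at WL2. On the first principal component, which held 27.8% of the variance, Pre replicate 2 lay at -69.7 and the other Pre libraries at -21.7 and -24.9, so counts of genes were also taken without it. Adipocyte and endothelial markers were present in all libraries, with the 12 adipocyte markers summing to 30557 to 52463 CPM and the 25 endothelial markers other than the 10 genes to 2130 to 3394 CPM. Of 8 skeletal muscle and epididymis genes, 3 passed the filter.

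The levels of the 10 genes differed more from gene to gene than from phase to phase. Per kilobase of gene length, the scale on which genes can be compared, *Cdh5* had the highest level in each phase, with 118 ± 23.7 CPM per kb at Pre, 131 ± 43.8 at WL1 and 121 ± 12.3 at WL2 (mean ± SD, n = 3 throughout). *Angpt1* had the lowest, with 0.716 ± 0.343, 1.12 ± 0.261 and 0.921 ± 0.242 CPM per kb. Between them, at Pre, stood *Vegfb* at 83.0, *Pecam1* at 62.3, *Vegfa* at 55.4, *Tie1* at 35.5, *Kdr* at 23.5, *Tek* at 18.2, *Flt1* at 9.74 and *Angpt2* at 5.06 CPM per kb. The ranges of neighbours in this order overlapped at Pre for *Vegfb* and *Pecam1*, for *Pecam1* and *Vegfa*, and for *Kdr* and *Tek*, while *Kdr* exceeded *Tek* within each of the 3 libraries. The order was that of Pre again at WL2, and at WL1 *Vegfb*, at 60.8 CPM per kb, stood behind *Vegfa* at 66.1 and *Pecam1* at 64.4, and the ranges of these neighbours overlapped. The ranges of *Tie1*, *Kdr*, *Tek* and *Flt1* also overlapped from one to the next at WL1, as did those of *Cdh5* and *Vegfb* at WL2, although each such gene exceeded the next in all 3 libraries.

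**Figure D1:**
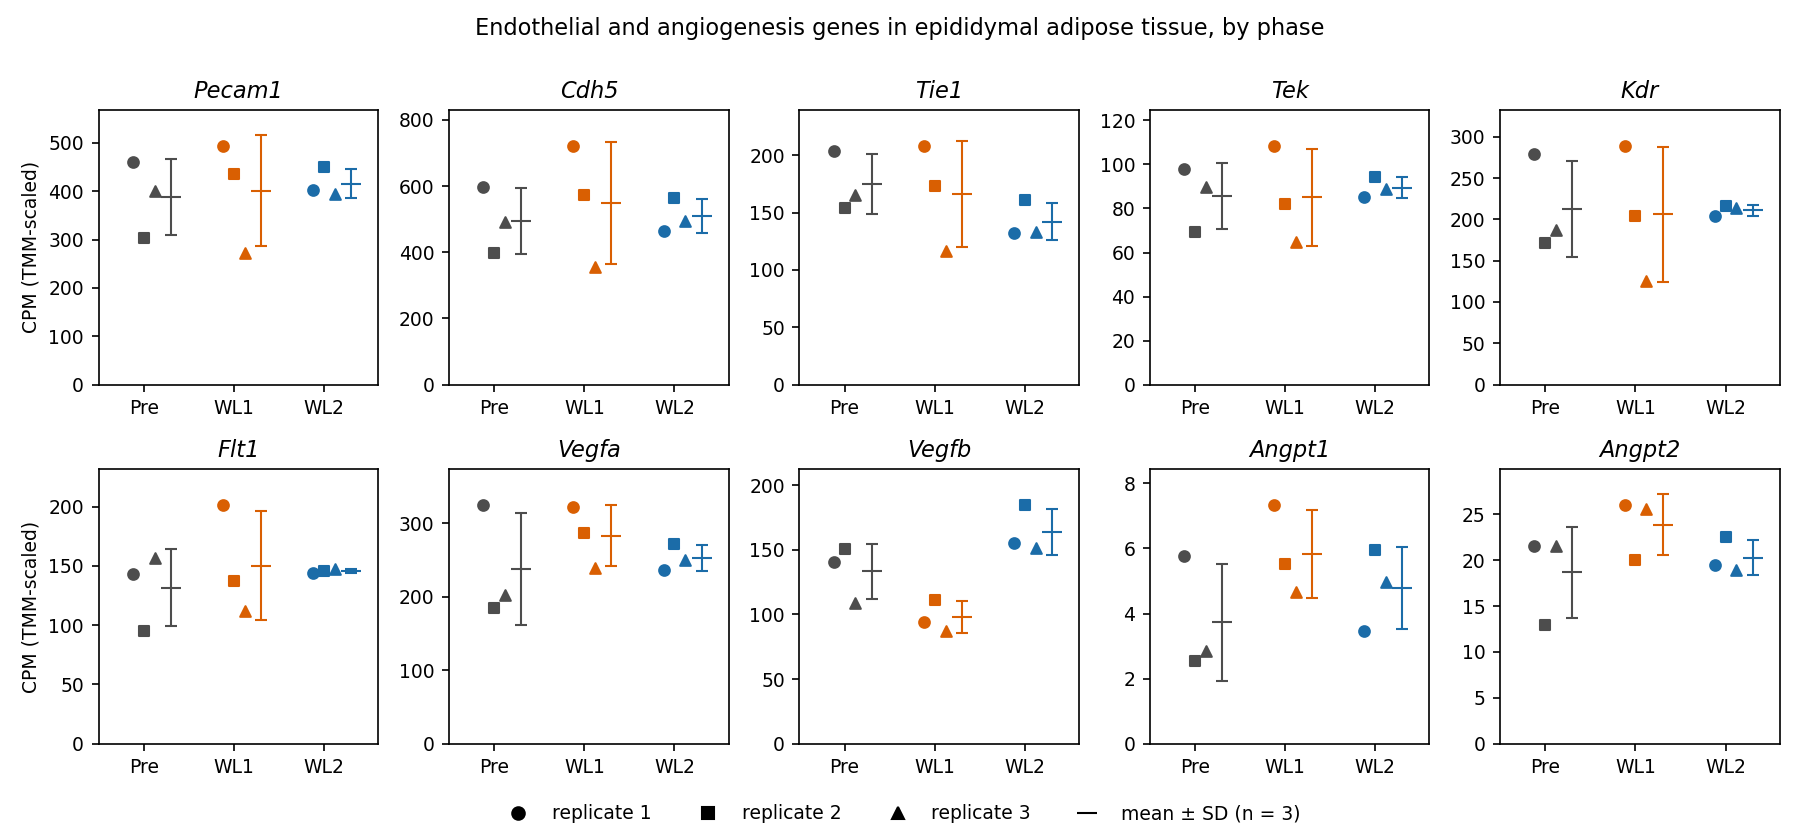
Level of each of the 10 genes in TMM-scaled CPM (y axis, from 0) in the 9 libraries by phase (x axis); symbols are replicates and bars the mean ± SD of 3 libraries. *Vegfb* is the gene whose WL2 libraries, at 152 to 184 CPM, all sit above those of WL1, at 87.4 to 111 CPM, while the 6 endothelial genes overlap in every pair of phases.

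The junction genes differed between phases by less than the spread within a phase. *Pecam1*, which encodes CD31 and is the standard marker of the vessel lining, had 460.2, 303 and 400.3 CPM in Pre replicates 1, 2 and 3, 494, 437 and 273 CPM in the WL1 libraries, and 402, 451 and 395 CPM in the WL2 libraries. *Cdh5*, which encodes VE-cadherin, the adhesion protein that holds endothelial cells together, had 598, 398 and 490.2 CPM at Pre, 721, 572 and 355 CPM at WL1 and 465, 565 and 495 CPM at WL2. In both genes WL1 replicate 1 was the highest and WL1 replicate 3 the lowest of the 9 libraries, so that the WL1 range enclosed those of both other phases. For *Pecam1* the log2 fold change was 0.05 (SE 0.21) at WL1 against Pre and 0.10 (SE 0.21) at WL2 against Pre, with adjusted p = 0.917 and 0.801 (edgeR quasi-likelihood test, Benjamini-Hochberg over all genes tested, as for all adjusted p-values of the counts). For *Cdh5* it was 0.15 (SE 0.23) and 0.04 (SE 0.23), with adjusted p = 0.740 and 0.935 by edgeR. In whole tissue, fewer endothelial cells and less RNA per endothelial cell cannot be told apart, and both contrasts share the 3 Pre libraries.

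The TIE receptors were likewise spread within phases. *Tek* had 98.1, 69.2 and 89.6 CPM at Pre, 108, 82.1 and 64.7 CPM at WL1 and 85.0, 94.4 and 88.7 CPM at WL2. Its log2 fold change was -0.01 (SE 0.18) at WL1 and 0.06 (SE 0.18) at WL2 against Pre, with edgeR adjusted p = 0.982 and 0.859. *Tie1* had 204, 154 and 166 CPM at Pre, 208, 173 and 116 CPM at WL1 and 132, 161 and 133 CPM at WL2. The 3 WL2 libraries of *Tie1* lay in the lower part of its range and overlapped Pre through 1 library, at 161 CPM. From Pre to WL2 it had a log2 fold change of -0.30 (SE 0.20, 95% interval -0.73 to 0.14), for which the edgeR test gave adjusted p = 0.371.

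The VEGF receptors gave the same picture. *Kdr*, the main signalling receptor of VEGF-A, had 279, 171 and 187 CPM at Pre, 289, 204 and 125 CPM at WL1 and 204, 216 and 214 CPM at WL2. *Flt1*, which binds VEGF-A and VEGF-B, had 143, 94.9 and 157 CPM at Pre, 201, 137 and 112 CPM at WL1 and 144, 145 and 148 CPM at WL2. The WL2 libraries of both genes sat close together inside the ranges of Pre and WL1. The log2 fold changes at WL1 and WL2 against Pre were -0.04 (SE 0.27) and -0.01 (SE 0.27) for *Kdr* and 0.19 (SE 0.22) and 0.15 (SE 0.22) for *Flt1*, with edgeR adjusted p between 0.642 and 0.992.

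Among the ligands, *Vegfb* differed between the phases of weight loss. VEGF-B is a poor stimulus of vessel growth compared with VEGF-A and has been linked to fatty acid handling in metabolic tissues. *Vegfb* had 140.1, 150.2 and 109 CPM at Pre, 94.2, 111 and 87.4 CPM at WL1 and 155, 184 and 152 CPM at WL2. Each WL2 library exceeded each library of Pre and of WL1, and WL1 overlapped Pre through WL1 replicate 2 and Pre replicate 3. At WL2, *Vegfb* was 1.68-fold higher than at WL1 (log2 fold change 0.75, SE 0.15, 95% interval 0.42 to 1.07, edgeR adjusted p = 0.0277). Against Pre, the log2 fold change was -0.45 (SE 0.15, 95% interval -0.77 to -0.12) at WL1 and 0.30 (SE 0.15, 95% interval -0.03 to 0.63) at WL2, and neither passed, with edgeR adjusted p = 0.0975 and 0.231. The call at WL2 against WL1 did not hold without WL1 replicate 1, 2 or 3 or without WL2 replicate 2 or 3, where the log2 fold change was 0.65 to 0.85 and edgeR gave adjusted p = 0.0539 to 0.142. At WL1 against Pre, edgeR passed *Vegfb* without Pre replicate 3 (log2 fold change -0.57, adjusted p = 0.0458), and DESeq2 passed it with all libraries (-0.47, adjusted p = 0.0325).

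*Vegfa* had 325, 185 and 202 CPM at Pre, 322, 287 and 240.0 CPM at WL1 and 236, 271 and 249.7 CPM at WL2. Pre replicate 1 was the highest of the 9 libraries and the other Pre libraries were the lowest, so that the Pre range enclosed both others. The log2 fold change of *Vegfa* was 0.25 (SE 0.20, 95% interval -0.19 to 0.70) at WL1 and 0.09 (SE 0.20, 95% interval -0.36 to 0.53) at WL2 against Pre, with edgeR adjusted p = 0.471 and 0.813. The WL1 value rested on single Pre libraries, being 0.55 without Pre replicate 1 (edgeR adjusted p = 0.0810) and 0.10 without Pre replicate 2. *Angpt2* had 21.6, 12.9 and 21.5 CPM at Pre, 26.004, 20.1 and 25.6 CPM at WL1 and 19.4, 22.5 and 18.9 CPM at WL2, with log2 fold changes of 0.35 (SE 0.20) and 0.12 (SE 0.20) against Pre and edgeR adjusted p = 0.299 and 0.742. Without Pre replicate 2 the WL1 value was 0.15. *Angpt2* overlaps *Mcph1* on the opposite strand, which had 2766 counts against 3517 for *Angpt2* over the 9 libraries, and as the strand setting of the counting is not given, reads of the pair may not be told apart. *Angpt1*, a ligand made mainly by mural and stromal cells, was the least precise, with 206, 338 and 254 counts over the 3 libraries of Pre, WL1 and WL2. Its level was 5.78, 2.53 and 2.86 CPM at Pre, 7.33, 5.51 and 4.67 CPM at WL1 and 3.45, 5.95 and 4.98 CPM at WL2. The phases overlapped, and the log2 fold change was 0.65 (SE 0.34, 95% interval -0.10 to 1.41) at WL1 and 0.37 (SE 0.34) at WL2 against Pre, with edgeR adjusted p = 0.269 and 0.530. These values became 1.11 and 0.83 without Pre replicate 1 (edgeR adjusted p = 0.0835 and 0.128) and 0.44 and 0.16 without Pre replicate 2.

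**Figure D2:**
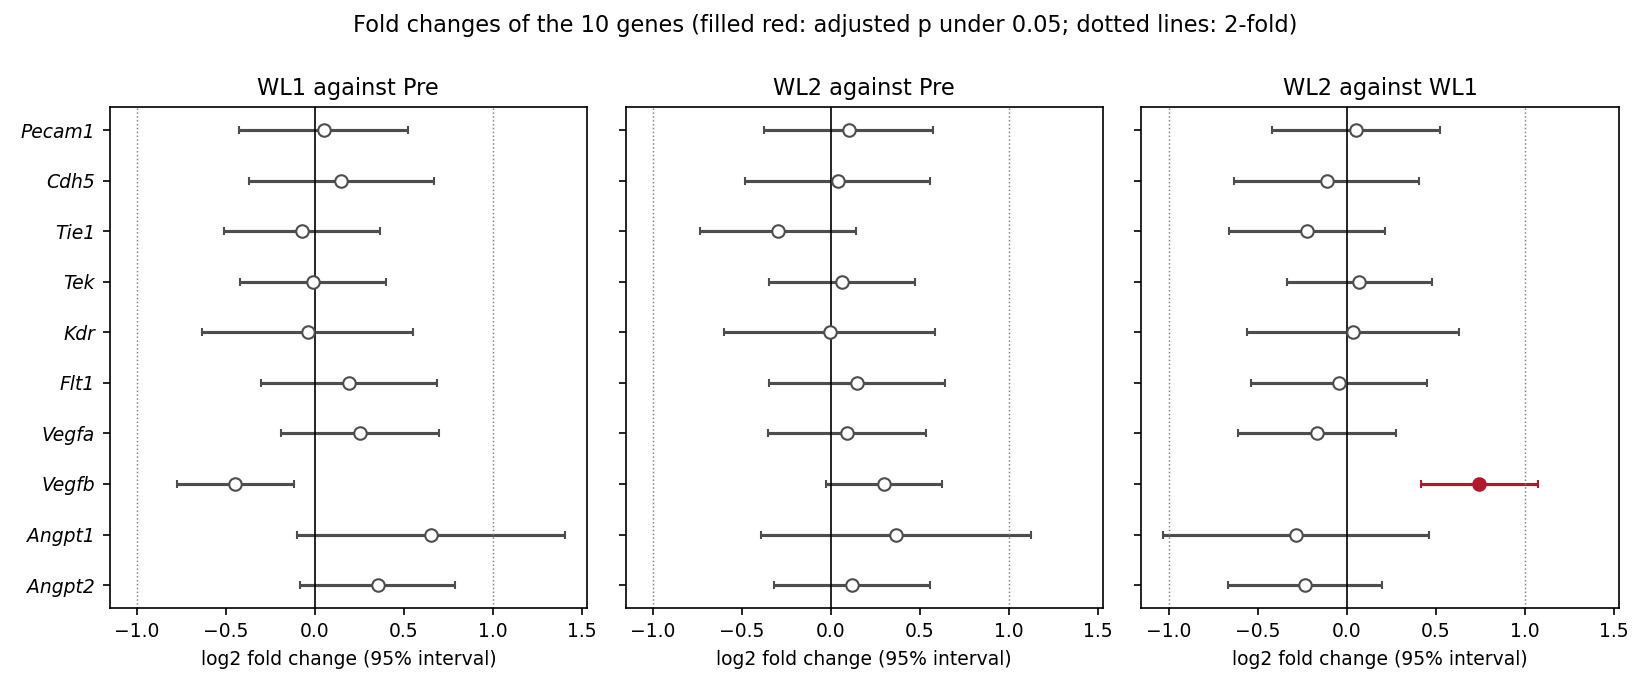
Log2 fold change (x axis) of each gene (y axis) with its 95% interval from edgeR, in the 3 comparisons of phases; red filled points passed the adjusted p threshold of 0.05 and dotted lines mark 2-fold. *Vegfb* at WL2 against WL1, at 0.75, is the 1 filled point, and the intervals of *Angpt1* are the widest.

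The count of genes that passed is read against that of all genes tested. At WL1 against Pre, 0 of the 10 genes passed with edgeR and limma on log2(FPKM + 1), and 1, *Vegfb*, with DESeq2 and at an unadjusted edgeR p under 0.05. Among all genes tested, 7.29% passed with edgeR, 2.6% higher and 4.69% lower, 7.03% passed with limma and 14.4% with DESeq2, and 24.3% had an unadjusted p under 0.05. The libraries of the phases did not overlap for 0 of the 10 genes and for 28.7% of all genes. At WL2 against Pre, 0 of the 10 genes passed with edgeR, DESeq2 and limma, and 0 had an unadjusted edgeR p under 0.05, while 1, *Vegfb*, did not overlap. The shares among all genes were 10% with edgeR, 3.35% higher and 6.66% lower, 16% with DESeq2, 9.83% with limma, 26% at an unadjusted p under 0.05 and 30.9% without overlap. At WL2 against WL1, *Vegfb* passed with edgeR, DESeq2 and limma, was the 1 gene with an unadjusted p under 0.05 and the 1 gene without overlap. There the shares among all genes were 3.68% with edgeR, 1.31% higher and 2.37% lower, 11.9% with DESeq2, 2.9% with limma, 21.4% at an unadjusted p under 0.05 and 30.3% without overlap. With 10 genes, a single call makes up 10% of them, so these counts say little about whether the 10 genes differ from the rest.

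The intervals state how large a change these libraries leave room for. The 95% interval of the log2 fold change lay within 2-fold in both directions for 9 of the 10 genes at WL1 and at WL2 against Pre, *Angpt1* being the exception, and for 8 of 10 at WL2 against WL1, with *Angpt1* and *Vegfb* the exceptions. The median log2 fold change of the 10 genes was 0.10, 0.09 and -0.08 in these comparisons, beside 0.02, 0.01 and -0.00 over all 18510 genes. The median absolute log2 fold change was 0.17, 0.11 and 0.14 for the 10 genes and 0.30, 0.31 and 0.26 for all genes. The set of all genes was not matched to the 10 genes in level and includes genes close to the expression filter. Whether the 10 genes differed less between phases than other genes of like level was therefore not tested. Scaling to library totals without TMM factors moved the median of all genes to 0.12 at WL1 and 0.16 at WL2 against Pre, where 61% and 64.2% of the edgeR calls over all genes were then higher, against 35.7% and 33.5% with TMM factors. Without the factors the direction of *Kdr* turned in both comparisons and that of *Tie1* and *Tek* at WL1. From WL1 to WL2, 35.5% of the calls were higher with TMM factors and 48.3% with upper-quartile factors.

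The 6 endothelial genes varied together from library to library. Their summed level was 1781, 1190 and 1489 CPM in the Pre libraries, 2021, 1605 and 1046 CPM at WL1 and 1431, 1632 and 1474 CPM at WL2. WL1 replicate 1 ranked highest for all 6 genes, WL1 replicate 3 lowest for 5 and second lowest for *Flt1*, and Pre replicate 2 among the 4 lowest for all 6. The highest library exceeded the lowest by 1.93-fold at WL1, by 1.497-fold at Pre and by 1.14-fold at WL2, so the phase means of 1487 ± 296, 1557 ± 489 and 1513 ± 106 CPM differed by less than the spread at Pre and WL1. Over the 9 libraries, Pearson's r of the 15 pairs of these genes ranged from 0.53 to 0.96 with a median of 0.84, and from 0.74 to 0.98 with a median of 0.94 once phase means were removed. This is a description, since the genes share the libraries and their scaling. The 25 other endothelial markers summed to 3394, 2537 and 2524 CPM at Pre, 3375, 3053 and 2130 CPM at WL1 and 3340, 3347 and 2929 CPM at WL2, and WL1 replicate 3 was again the lowest of the 9. That library also had the highest summed macrophage markers, at 3.62 times the Pre mean beside 1.76 and 2.08 times in the other WL1 libraries, and the lowest adipocyte markers, at 0.695 times. The part of these cell types in the spread of the endothelial genes was not tested.

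**Figure D3:**
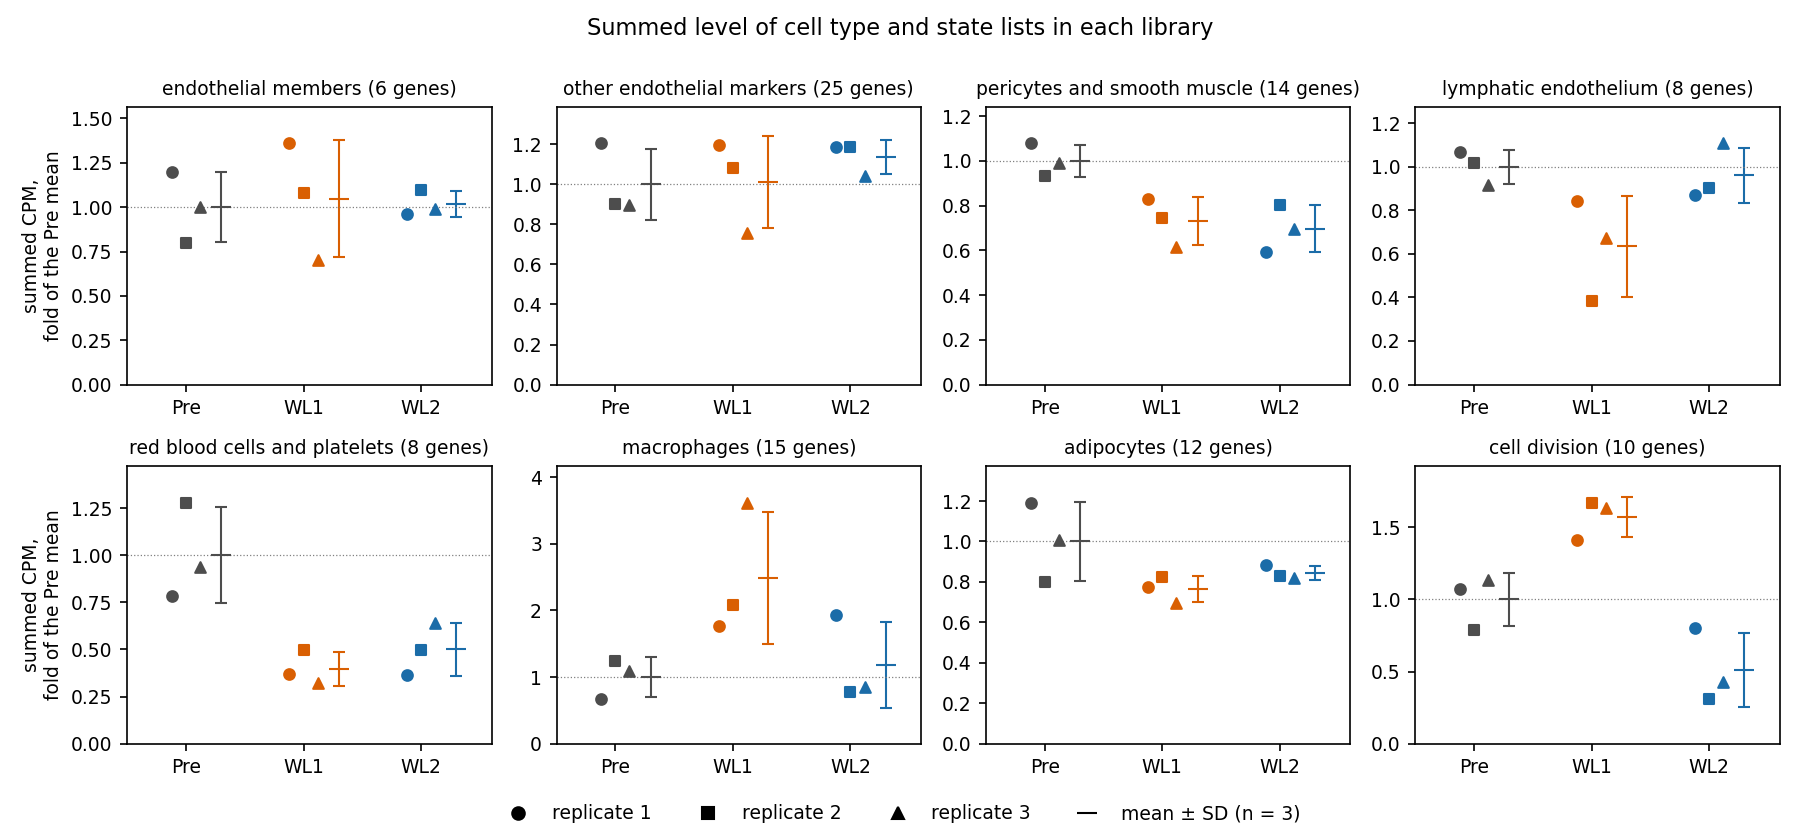
Summed CPM of marker lists (y axis, as fold of the Pre mean) in the 9 libraries by phase (x axis), with mean ± SD of 3 libraries. The 6 endothelial genes and the 25 other endothelial markers overlap between phases, and WL1 replicate 3 is low in both and highest for macrophages at 3.62. The red blood cell and platelet list, whose sum is mostly haemoglobin genes, lies below all Pre libraries at WL1 and WL2.

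Ratios within a library set related genes against each other free of the scaling between libraries. The ratio of *Vegfa* to *Vegfb* per kb was 0.868, 0.462 and 0.694 at Pre, 1.28, 0.966 and 1.03 at WL1 and 0.571, 0.551 and 0.617 at WL2. It was thus higher in each WL1 library than in any of the other 6. The ratio of *Tie1* to *Tek* was 1.99, 2.13 and 1.77 at Pre, 1.84, 2.02 and 1.72 at WL1 and 1.49, 1.63 and 1.44 at WL2, so each WL2 library lay below each of the others. The ratio of *Flt1* to *Kdr*, the VEGF receptors, was 0.425 ± 0.119 at Pre, 0.505 ± 0.0804 at WL1 and 0.461 ± 0.0107 at WL2. That of *Angpt2* to *Angpt1* was 7.69 ± 2.70, 5.96 ± 1.54 and 6.22 ± 1.501, and the phases overlapped in both. These ratios were taken after the levels of the genes had been seen and are given without a test.

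**Figure D4:**
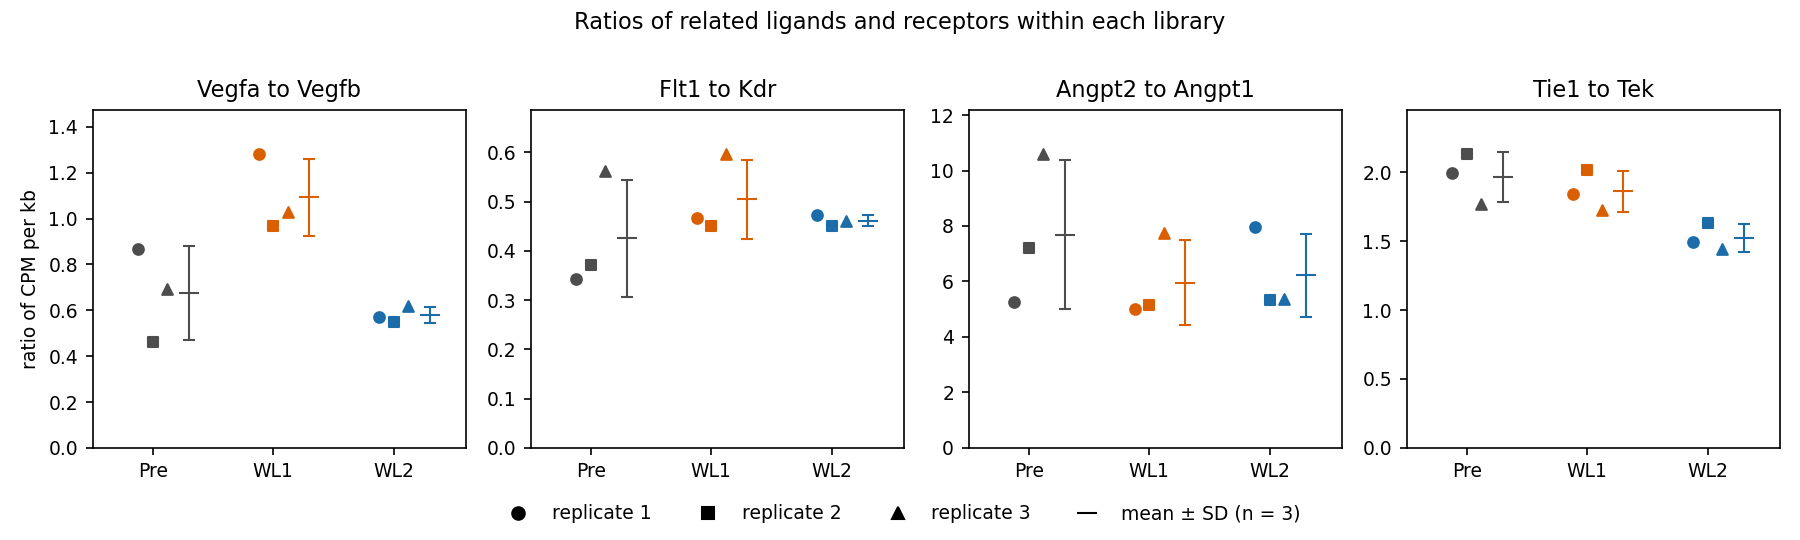
Ratio of CPM per kb of related ligands and receptors (y axis, from 0) in the 9 libraries by phase (x axis), with mean ± SD of 3 libraries. The ratio of *Vegfa* to *Vegfb* peaks at WL1, at 0.966 to 1.28, and that of *Tie1* to *Tek* is lowest at WL2, at 1.44 to 1.63.

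A fit with the mean log2 CPM of the 25 other endothelial markers as a covariate, chosen after the data were seen, compared the genes at equal endothelial marker level. In it *Tie1* was lower at WL2 than at Pre (log2 fold change -0.47, SE 0.12, 95% interval -0.73 to -0.21, adjusted p = 0.0356, edgeR) and was the 1 gene of the 10 that passed, beside 8.51% of all genes. Relative to the summed markers, *Tie1* stood at 6.01%, 6.07% and 6.56% at Pre, 6.16%, 5.67% and 5.47% at WL1 and 3.96%, 4.81% and 4.55% at WL2. The summed markers themselves had a mean of 2818 CPM at Pre and 3205 CPM at WL2. They include *Sox17* and *S1pr1*, which were higher at WL2 than at Pre, so these values of *Tie1* are relative to markers that changed. At WL2 against WL1 the log2 fold change of *Tie1* in this fit was -0.37 (SE 0.11), which did not pass (edgeR adjusted p = 0.126). *Vegfb* at WL2 against WL1 was 0.70 (SE 0.16) in this fit and did not pass (edgeR adjusted p = 0.0508), so that 0 of the 10 genes did in that comparison, beside 2.3% of all genes. At WL1 against Pre the count was also 0 of 10, beside 9.02% of all genes. At an unadjusted edgeR p under 0.05 this fit held 2 of the 10 genes in that comparison, *Vegfb* and *Angpt1*, beside 25.6% of all genes. It held 1, *Tie1*, at WL2 against Pre, beside 24.4%, and 3, *Vegfa*, *Vegfb* and *Tie1*, at WL2 against WL1, beside 19%.

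The other members of the VEGF and angiopoietin families, 8 ligands, receptors and co-receptors, gave 0 genes past the edgeR threshold in each comparison, with 3, 2 and 1 at an unadjusted p under 0.05. Of all genes, 24.3%, 26% and 21.4% had an unadjusted edgeR p under 0.05, and 7.29%, 10% and 3.68% passed. Without Pre replicate 2 the counts of the list against Pre were also 0, and 1 gene passed as lower at WL2 against WL1. *Vegfd*, a ligand of the lymphatic receptor VEGFR3, came closest against Pre, with 42.9, 52.8 and 57.5 CPM at Pre, 39.7, 23.1 and 28.9 CPM at WL1 and 26.2, 30.5 and 38.9 CPM at WL2. Its WL1 and WL2 libraries all lay below those of Pre, with log2 fold changes of -0.74 (SE 0.21) and -0.68 (SE 0.21) and edgeR adjusted p = 0.0611 and 0.0690. *Nrp2*, a co-receptor of VEGF and semaphorin ligands, had 113, 79.8 and 115 CPM at Pre, 153, 128 and 151 CPM at WL1 and 103, 93.4 and 99.4 CPM at WL2. At WL2 against WL1 its log2 fold change was -0.55 (SE 0.15, edgeR adjusted p = 0.0649), and the WL1 libraries lay above all others.

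Few of the endothelial markers outside the 10 passed. Of the 25 other endothelial markers, 0 passed at WL1 against Pre, where *Cd34* had the smallest unadjusted p (0.0273, log2 fold change -0.33), 2 rose at WL2 against Pre and 0 passed at WL2 against WL1, with 1, 6 and 2 at an unadjusted edgeR p under 0.05. Among all genes tested, 7.29%, 10% and 3.68% passed in these comparisons, and 24.3%, 26% and 21.4% had an unadjusted edgeR p under 0.05. The counts of the list are not above these shares. Leaving out Pre replicate 2 gave 0, 2 and 1 higher and 0 lower. *Sox17*, a transcription factor of arterial endothelium, rose by 0.70 on the log2 scale (SE 0.16, edgeR adjusted p = 0.0241), from 51.5, 35.2 and 54.8 CPM at Pre to 76.4, 74.7 and 79.6 CPM at WL2. *S1pr1*, the sphingosine 1-phosphate receptor that stabilises vessels, rose by 0.56 (SE 0.12, edgeR adjusted p = 0.0149), from 181, 158 and 165 CPM to 250.04, 238 and 257 CPM. In both genes each WL2 library exceeded each Pre library. The *Sox17* call did not hold without any 1 of the 3 WL2 libraries, nor that of *S1pr1* without WL2 replicate 2 or 3.

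Of 18 genes of sprouting and of arterial or venous identity, 1 fell at WL1 and 3 fell at WL2 against Pre, and 0 rose. At WL2 against WL1, 0 passed and 5 had an unadjusted edgeR p under 0.05. Among all genes tested, 4.69% were lower at WL1 and 6.66% at WL2 against Pre, and 2.6% and 3.35% higher. At WL2 against WL1, 21.4% of all genes had an unadjusted edgeR p under 0.05. In lists this short, a few calls say little about whether a list differs from all genes. *Esm1*, a proteoglycan of the tip cells that lead vessel sprouts, had 6.43, 7.82 and 8.86 CPM at Pre, 2.82, 1.42 and 1.86 CPM at WL1 and 3.83, 1.98 and 1.68 CPM at WL2. It fell by 1.92 (SE 0.35) at WL1 and by 1.62 (SE 0.35) at WL2 on the log2 scale, with edgeR adjusted p = 0.0121 and 0.0162. The WL1 call held without each library in turn, and the WL2 call did not hold without WL2 replicate 2 or 3. *Aplnr*, the apelin receptor of venous and sprouting endothelium, had 143, 91.0 and 95.02 CPM at Pre, 130.5, 90.3 and 46.3 CPM at WL1 and 41.5, 47.0 and 27.4 CPM at WL2. It fell by 1.504 at WL2 against Pre (SE 0.34, edgeR adjusted p = 0.0216), a call that did not hold without Pre replicate 1 or any 1 of the 3 WL2 libraries, and at WL2 against WL1, where it had the smallest unadjusted p of the list, the log2 fold change was -1.20 (edgeR adjusted p = 0.0778). *Unc5b*, a netrin receptor that restrains sprouting, fell by 0.63 at WL2 (SE 0.17, edgeR adjusted p = 0.0405), and this call was lost without each of the other libraries than WL1 replicate 1 and Pre replicate 3. The counts of this list without Pre replicate 2 were 1 lower at WL1 and 2 lower at WL2.

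Of 18 other secreted factors and inhibitors of angiogenesis, 3 rose and 1 fell at WL1, 4 rose and 4 fell at WL2 against Pre, and 0 rose and 2 fell at WL2 against WL1. These counts were 3 and 0, 3 and 6, and 1 and 3 without Pre replicate 2. With all libraries, the shares of all genes higher and lower were 2.6% and 4.69%, 3.35% and 6.66%, and 1.31% and 2.37%. The thrombospondins *Thbs1* and *Thbs2*, matrix proteins that inhibit angiogenesis, rose at WL1 by 1.17 (SE 0.19) and 2.59 (SE 0.23) and at WL2 by 1.95 (SE 0.20) and 3.00 (SE 0.23), with edgeR adjusted p between 4.82e-05 and 0.00701. *Thbs1* went from 305, 348 and 510.1 CPM at Pre to 1003, 857 and 753 CPM at WL1 and 1423, 1412 and 1657 CPM at WL2, with no overlap between any phases. *Adm*, the vasodilator adrenomedullin, rose by 0.81 at WL1 and 0.80 at WL2 (SE 0.15 in both), with edgeR adjusted p = 0.0115 and 0.00775, from 17.6, 17.8 and 18.7 CPM at Pre to 27.5 CPM or more in all 6 later libraries. The calls of these 3 genes against Pre held without each library in turn.

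The secreted factors and inhibitors that fell were of several kinds. *Vash1*, an endothelial inhibitor of vessel growth, had 24.5, 22.9 and 26.6 CPM at Pre, 26.9, 20.2 and 15.01 CPM at WL1 and 7.17, 8.72 and 11.003 CPM at WL2, and fell at WL2 by 1.46 against Pre (SE 0.22, edgeR adjusted p = 0.00256) and by 1.21 against WL1 (SE 0.22, edgeR adjusted p = 0.0212). *Serpinf1*, which encodes PEDF, an inhibitor secreted by adipocytes and fibroblasts, had 388, 387 and 392 CPM at Pre, 308, 346 and 338 CPM at WL1 and 179.9, 167 and 158 CPM at WL2. It fell at WL2 by 1.21 against Pre (SE 0.10, edgeR adjusted p = 7.08e-05) and by 0.97 against WL1 (SE 0.10, edgeR adjusted p = 0.00228), with no overlap between any of the phases. *Col18a1*, the collagen that yields endostatin, fell by 0.96 at WL1 (SE 0.21, edgeR adjusted p = 0.0219), and *Sema3c*, a semaphorin that guides vessels, by 1.17 at WL2 (SE 0.31, edgeR adjusted p = 0.0385). The *Col18a1* call at WL1 did not hold without Pre replicate 2 or any 1 of the WL1 libraries, that of *Vash1* against WL1 without WL1 replicate 1 or 2 or WL2 replicate 2, and that of *Sema3c* without Pre replicate 1 or 3, WL1 replicate 1 or WL2 replicate 1 or 2. The remaining calls at WL2 against Pre, named after their values were seen, were *Pdgfb*, which recruits pericytes, 0.44 higher (SE 0.10, edgeR adjusted p = 0.0235, lost without Pre replicate 2 or 3 or WL2 replicate 1 or 2), and *Col18a1*, 1.03 lower (log2 fold change -1.03, SE 0.21, edgeR adjusted p = 0.0115).

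**Figure D5:**
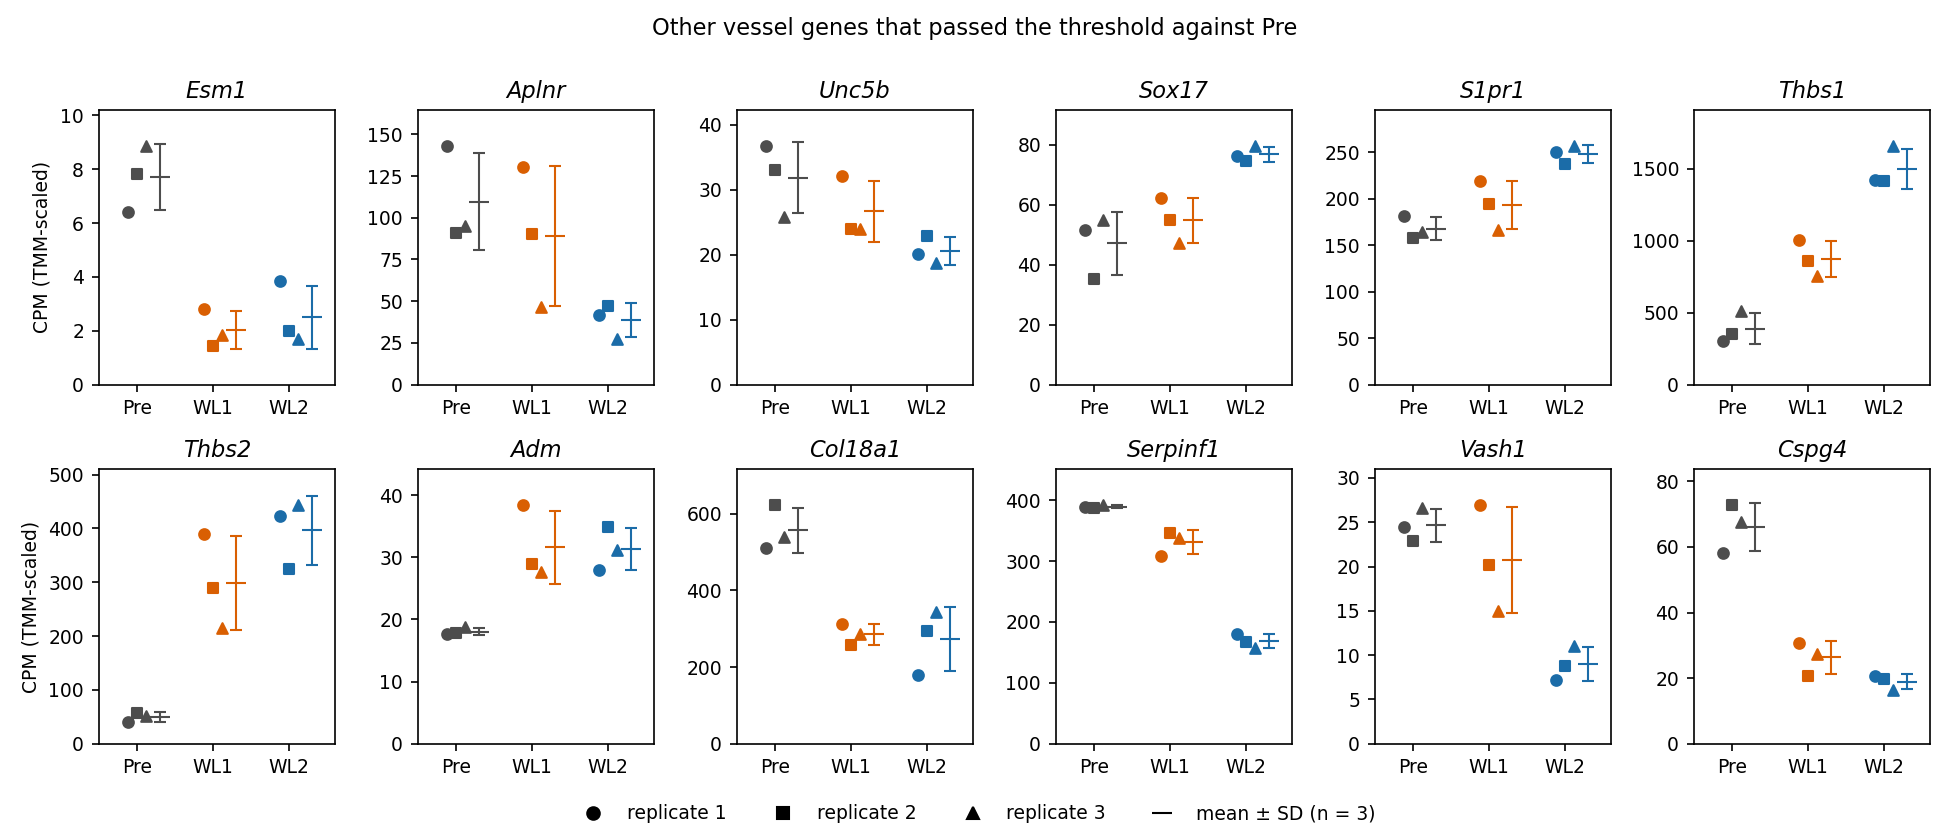
Level in TMM-scaled CPM (y axis, from 0) in the 9 libraries by phase (x axis), with mean ± SD of 3 libraries. The 12 genes are a selection of the vessel genes outside the 10 that passed the threshold against Pre. *Sema3c*, *Pdgfb*, *Acta2*, *Mcam*, *Higd1b* and *Itga9* also passed against Pre and are not shown. *Esm1*, *Cspg4* and *Col18a1* are lower in all WL1 and WL2 libraries than at Pre, *Thbs1*, *Thbs2* and *Adm* are higher in all of them, and *Vash1* and *Serpinf1* are lowest at WL2.

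Hypoxia induces *Vegfa* through HIF-1, and 17 genes of the hypoxia response went in both directions. At WL1 against Pre 1 rose and 2 fell, at WL2 against Pre 1 rose and 3 fell, and at WL2 against WL1 1 rose and 0 fell, with median log2 fold changes of -0.05, 0.03 and 0.12. Without Pre replicate 2 these counts were 1 and 1, 1 and 2, and 1 and 0. With all libraries, 2.6%, 3.35% and 1.31% of all genes were higher and 4.69%, 6.66% and 2.37% lower. The summed level of the list was lower in each later library than in any Pre library, at 2664 to 2747 CPM in the Pre libraries, 2160 to 2369 CPM in the WL1 libraries and 2360 to 2534 CPM in the WL2 libraries. The lower sum rested on *Ldha*, with phase means of 961, 562 and 518 CPM, while those of *Epas1* were 519, 635 and 681 CPM. The glycolytic enzymes *Ldha* and *Hk2* fell at WL1 by 0.77 and 0.78 and the kinase *Pdk1* rose by 0.53, with edgeR adjusted p = 0.00614, 0.0380 and 0.0303. At WL2, *Ldha* fell by 0.89, *Hif1a* itself by 0.63 and *Pgk1*, another glycolytic enzyme, by 0.55, while *Ndrg1* rose by 0.91, with edgeR adjusted p between 0.00154 and 0.0328. *Ndrg1*, an iron- and oxygen-responsive gene, also rose by 0.66 at WL2 against WL1 (edgeR adjusted p = 0.0251). The calls of *Ldha* and that of *Ndrg1* against Pre held without each library in turn. Those of *Hif1a* and of *Ndrg1* against WL1 did not hold without WL2 replicate 2 or 3, nor the latter without WL1 replicate 2 or 3. That of *Hk2* was lost without Pre replicate 1 or 2, any WL1 library or WL2 replicate 2, that of *Pdk1* without Pre replicate 1 or 3, WL1 replicate 1 or 2 or WL2 replicate 2, and that of *Pgk1* without Pre replicate 1 or 2, WL1 replicate 2 or WL2 replicate 2 or 3.

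Pericytes and smooth muscle cells cover the endothelium. Of their 14 genes, 0 rose and 2 fell at WL1, 1 rose and 3 fell at WL2 against Pre, and 0 passed at WL2 against WL1, where 3 had an unadjusted edgeR p under 0.05 and *Pdgfrb* the smallest (0.00482, log2 fold change -0.40). Without Pre replicate 2, 2 fell at WL1 and 2 at WL2 and 0 rose. With all libraries, 2.6% of all genes were higher and 4.69% lower at WL1, and 3.35% and 6.66% at WL2 against Pre. At WL2 against WL1, 21.4% of all genes had an unadjusted edgeR p under 0.05. *Cspg4*, which encodes the pericyte proteoglycan NG2, had 58.0, 72.7 and 67.5 CPM at Pre, 30.8, 20.7 and 27.3 CPM at WL1 and 20.8, 19.7 and 16.3 CPM at WL2, and fell by 1.33 (SE 0.16) and 1.80 (SE 0.17) against Pre. *Acta2*, the actin of smooth muscle and myofibroblasts, fell by 1.28 and 1.06, and *Mcam*, an adhesion molecule of both mural and endothelial cells, by 0.60 at WL2, while *Higd1b* rose by 1.03 at WL2. The edgeR adjusted p-values were 0.00151 and 0.000129 for *Cspg4*, 0.000532 and 0.00056 for *Acta2*, 0.0461 for *Mcam* and 0.0197 for *Higd1b*. The *Mcam* call held without WL1 replicate 3 only, and the *Higd1b* call did not hold without Pre replicate 2. Summed over the list, the Pre libraries had 1938 ± 140.4 CPM, the WL1 libraries 1415 ± 209 CPM and the WL2 libraries 1350 ± 202 CPM. The lower sum rested mostly on *Mcam*, with means of 724, 505 and 477 CPM, and *Acta2*, with 365, 150 and 176 CPM. *Abcc9*, *Higd1b* and *Tagln* had higher means at WL1 and WL2 than at Pre, and *Pdgfrb* and *Notch3* at WL1 only. The other genes of the list had lower means in both.

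Lymphatic and blood transcripts were read from the same libraries. Of all genes, 4.69% were lower at WL1 against Pre, 6.66% at WL2 against Pre and 2.37% at WL2 against WL1. In the same order, 24.3%, 26% and 21.4% of all genes had an unadjusted edgeR p under 0.05. Of 8 lymphatic endothelial genes, *Itga9*, an integrin of lymphatic valves, fell by 0.66 at WL2 against Pre (SE 0.15, edgeR adjusted p = 0.0197) and 0 others passed in any comparison, with 1, 1 and 2 at an unadjusted edgeR p under 0.05. The *Itga9* call did not hold without Pre replicate 3 or WL2 replicate 2. *Lyve1*, a hyaluronan receptor that macrophages also carry, had a log2 fold change of -0.74 from Pre to WL1 and of 1.09 from WL1 to WL2, with edgeR adjusted p = 0.137 and 0.0594. Of 8 red blood cell and platelet genes, 4 fell at WL1 and 3 fell at WL2 against Pre, 0 rose, and 0 passed at WL2 against WL1, where *Ppbp* of platelets had a log2 fold change of 1.04 (edgeR adjusted p = 0.174). The haemoglobin genes *Hbb-bt* and *Hba-a1* and the haem enzyme *Alas2* fell at WL1 by 1.60, 1.53 and 1.68, with edgeR adjusted p = 0.00382, 0.0113 and 0.0190, and *Hbb-bt*, *Hba-a1* and *Hbb-bs* fell at WL2 by 1.27, 1.18 and 1.00, with edgeR adjusted p = 0.00691, 0.0223 and 0.0382. *Hba-a1* and *Hbb-bs* have near-identical copies, so their counts are uncertain. The remaining gene at WL1, named after its value was seen, was *Hbb-bs*. The *Hbb-bt* calls and that of *Hba-a1* at WL1 held without each library, that of *Alas2* was lost without WL1 replicate 1 or 3, and at WL2 those of *Hba-a1* and *Hbb-bs* were lost without Pre replicate 2 or WL2 replicate 1 or 2, the latter also without Pre replicate 3 or WL1 replicate 1. Without Pre replicate 2, 4 genes of the list fell at WL1 and 1 at WL2. Summed, the list stood at 1026 to 1672 CPM at Pre, 420.0 to 646 CPM at WL1 and 474 to 838 CPM at WL2, all lower than at Pre. The sum was mostly *Hba-a1* and *Hbb-bs*, with means of 489 and 615 CPM at Pre. The platelet genes *Pf4*, *Itga2b* and *Ppbp* had means of 39.9, 2.94 and 1.35 CPM at Pre. Their means were 45.1, 3.23 and 0.962 CPM at WL1 and 42.7, 4.39 and 2.00 CPM at WL2.

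Other cell types and states changed beside the vessel genes, and their part in the values above was not tested. Of all genes, 2.6% were higher and 4.69% lower at WL1, and 3.35% and 6.66% at WL2 against Pre. At WL2 against WL1, 1.31% of all genes were higher and 2.37% lower. An unadjusted edgeR p under 0.05 was held by 24.3%, 26% and 21.4% of all genes in these comparisons. Of 15 macrophage genes, *Gpnmb*, *Trem2* and *Msr1* rose at WL1 by 2.29, 1.83 and 1.56 (edgeR adjusted p = 0.0375, 0.0490 and 0.0403), 0 passed in the other comparisons, where 1 and 10 had an unadjusted edgeR p under 0.05. *Mertk* at WL2 against Pre and *Adgre1* at WL2 against WL1 had the smallest, with log2 fold changes of 0.48 and -1.27 (edgeR adjusted p = 0.146 and 0.0950). The 3 macrophage calls were each lost without any 1 of the Pre or WL1 libraries. Of 12 adipocyte genes, *Cidec*, *Lep* and *Plin1* fell at WL1 by 0.84, 0.83 and 0.52, *Cidec* and *Lep* fell at WL2 by 0.67 and 2.03 against Pre while *Adrb3* rose by 0.97, and *Adrb3* and *Pparg* rose and *Lep* fell at WL2 against WL1, by 1.59, 0.54 and 1.20. Without Pre replicate 2 these counts were 3 lower, 3 lower, and 2 higher with 2 lower. Of 10 cell division genes, 0 passed at WL1, where *Ccna2* came closest (log2 fold change 0.74, edgeR adjusted p = 0.0803). At WL2 against Pre *Ccna2*, *Rrm2* and *Top2a* fell by 1.00, 1.26 and 1.13, and 4 of the list fell at WL2 against WL1, led by *Rrm2*, *Top2a* and *Ccna2* with 1.86, 1.78 and 1.74 and completed by *Cdk1*. Without Pre replicate 2 the counts of this list were 2 and 6 lower. Of 12 fibroblast genes, *Dcn* rose by 0.84 and *Col3a1* fell by 0.89 at WL2 against Pre, calls that were lost without Pre replicate 2, 0 passed at WL1 against Pre, where *Pdgfra* was 0.45, and at WL2 against WL1, where *Col1a1* was -0.96 (edgeR adjusted p = 0.159 and 0.0591). The calls of *Cidec* and *Lep* held without each library in turn, and each other named call of the adipocyte, cell division and fibroblast genes was lost without at least 1 library, for *Adrb3* and *Ccna2* at WL2 against WL1 that being WL2 replicate 2 alone. All adjusted p-values of the named adipocyte, cell division and fibroblast calls lay between 2.03e-05 and 0.0499 by edgeR.

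Genes of cell types that are minor in fat, or foreign to it, varied between libraries as well. Their counts stand beside the same shares of all genes. Of 8 T and B cell genes, *Ighm* fell by 3.01 at both WL1 and WL2 against Pre (edgeR adjusted p = 0.00151 and 0.000793). At WL2 against WL1 *Cd79a* was at 0.97 and did not pass (edgeR adjusted p = 0.735). The sum of this list was 1.59 times the Pre mean in Pre replicate 2, beside 0.669 and 0.744 in the other Pre libraries. At Pre, *Cd79a* ranged from 1.00 to 67.1 CPM and *Ighm* from 1120 to 2502 CPM. Without Pre replicate 2, 1 gene of the list fell at WL1, and 1 rose and 1 fell at WL2 against Pre. Of 6 hepatocyte genes, *Apoa2* and *Serpina1a* fell by 4.43 and 2.95 at WL2 against Pre (edgeR adjusted p = 0.0459 and 0.00816). The *Apoa2* call was lost without Pre replicate 2 or 3 or any WL2 library. *Serpina1a* did not pass in the other comparisons, at -0.78 and -2.18 (edgeR adjusted p = 0.354 and 0.0566). The hepatocyte sum was 11.2, 57.2 and 93.6 CPM at Pre, 81.7, 3.86 and 10.3 CPM at WL1 and 3.67, 5.67 and 7.01 CPM at WL2. It thus differed widely between libraries of 1 phase. Of 9 mesothelial genes, 0 passed in any comparison by edgeR, with 0, 1 and 9 at an unadjusted p under 0.05, and *Krt19* at WL1 against Pre, *Krt18* at WL2 against Pre and *Krt19* at WL2 against WL1 had log2 fold changes of -1.16, 1.61 and 2.26. Of the 3 muscle and epididymis genes tested, *Acta1* fell by 2.41 at WL1 (edgeR adjusted p = 0.0131), a call lost without WL1 replicate 1 or 2, and did not pass at WL2 against Pre or WL1, with -1.47 and 0.94 (edgeR adjusted p = 0.0583 and 0.257). The mesothelial sum ranged from 0.153 to 1.52 times the Pre mean among the Pre libraries alone.

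The genes whose pattern over the 9 libraries was most like that of *Pecam1*, by Pearson's r of log2 CPM among 13055 protein-coding genes with a mean of at least 1 CPM, were *Tmem44*, *Aplp2*, *Cdh5*, *Mmrn2* and *Rnf144a*, with r from 0.953 to 0.961. *Cdh5* ranked 3, *Tek* 8, *Kdr* 28, *Flt1* 107 and *Tie1* 326 on this list, whereas *Vegfa* ranked 485, *Angpt1* 1076, *Angpt2* 3074 and *Vegfb* 4350. Those most like *Vegfa* were *F3*, *Slc28a2*, *Angpt1*, *Zfp266* and *Arap3*, with r from 0.909 to 0.955. *Vegfb*, added after its values were seen, was most like *Pttg1*, *Fdx1*, *Ffar4*, *Rbms2* and *Pithd1*, with r from 0.971 to 0.977. The libraries that set *Vegfb* high and low therefore differed from those that did so for the endothelial genes and for *Vegfa*, with r = 0.20 between *Vegfb* and *Pecam1* and -0.14 between *Vegfb* and *Vegfa*, as a description over 9 libraries.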

How the data were processed

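RNA of epididymal adipose tissue was measured in 9 libraries, 3 per phase, with group and replicate as each sample is labelled. The authors deposited 1 table of raw counts per gene and 1 table of FPKM per gene of the same libraries. The submitters' processing notes name HISAT2, HISAT, TopHat2 and CASAVA and the builds GRCm38 and mm10, with no role or order, and say nothing of the counting. Its program, strand setting and annotation are therefore not given in any of the sources used. For 0 of the 10 genes did the coordinates in the deposited table equal those of GENCODE on GRCm38, so none of them are printed, and promoter windows come from RefSeq. The deposited counts of genes that reached 0.5 CPM in any library were tested by the quasi-likelihood method of edgeR 4.0.16 under R 4.3.3, in 1 model of 3 phases over 9 libraries scaled by TMM and without covariates (glmQLFit, glmQLFTest). P-values were adjusted by Benjamini-Hochberg over 18510 genes with a threshold of 0.05. Levels are CPM from TMM-scaled library totals, divided by the gene length of the table for values per kb, and log2 CPM used a prior count of 4.

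All 10 genes are described in full. From each marker or pathway list, up to 3 genes past the threshold in each direction by size of change are named in each comparison, or the gene with the smallest unadjusted p where none passed. The 10 genes, the lists and the tests were chosen with earlier results of these data known. Alternatives were DESeq2 1.42.0, other scaling factors, other filters, the compared phases alone, the replicate number as a block, limma 3.58.1 on log2(FPKM + 1) and log2(FPKM + 0.1), and leaving out each library. The fit with endothelial markers as a covariate and the counts without Pre replicate 2 were added after the data were seen. The fitting steps were tested on simulated counts before use.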

Additional observations from a re-analysis of the deposited data

How the results depend on the processing

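The count of the 10 genes that passed at WL1 against Pre was 0 with edgeR, 1 with DESeq2 and 0 to 1 when single libraries were left out, and at WL2 against Pre 0, and 1 with the endothelial covariate. At WL2 against WL1 it was 1, 0 with that covariate and 0 to 1 when single libraries were left out. Small fold changes turned sign. Without scaling factors, *Tie1*, *Tek* and *Kdr* at WL1 against Pre became 0.031, 0.10 and 0.067, *Kdr* at WL2 against Pre 0.15 and *Flt1* at WL2 against WL1 0.0011. With upper-quartile factors, limma on log2(FPKM + 1) and limma on log2(FPKM + 0.1), *Kdr* at WL2 against Pre became 0.020, 0.024 and 0.026 and *Flt1* at WL2 against WL1 0.016, 0.013 and 0.017. With the covariate, *Pecam1*, *Cdh5*, *Tek*, *Flt1* and *Vegfa* at WL2 against Pre became -0.085, -0.16, -0.081, -0.0016 and -0.037, and *Pecam1*, *Tek* and *Kdr* at WL2 against WL1 -0.11, -0.054 and -0.14. When single libraries were left out, the log2 fold changes at WL1 against Pre ranged from -0.13 to 0.25 for *Pecam1*, -0.10 to 0.37 for *Cdh5*, -0.27 to 0.12 for *Tie1*, -0.22 to 0.14 for *Tek*, -0.36 to 0.20 for *Kdr* and -0.078 to 0.35 for *Flt1*. At WL2 against Pre they ranged from -0.049 to 0.24 for *Pecam1*, -0.10 to 0.19 for *Cdh5*, -0.070 to 0.17 for *Tek*, -0.14 to 0.24 for *Kdr*, -0.041 to 0.29 for *Flt1*, -0.062 to 0.38 for *Vegfa* and -0.087 to 0.23 for *Angpt2*. At WL2 against WL1 they ranged from -0.14 to 0.23 for *Pecam1*, -0.33 to 0.13 for *Cdh5*, -0.071 to 0.28 for *Tek*, -0.20 to 0.36 for *Kdr* and -0.20 to 0.22 for *Flt1*. Without a change of sign, the values at WL1 against Pre ranged from 0.10 to 0.55 for *Vegfa*, -0.57 to -0.35 for *Vegfb*, 0.44 to 1.11 for *Angpt1* and 0.15 to 0.47 for *Angpt2*, those at WL2 against Pre from -0.39 to -0.17 for *Tie1*, 0.17 to 0.39 for *Vegfb* and 0.16 to 0.83 for *Angpt1*, and those at WL2 against WL1 from -0.40 to -0.026 for *Tie1*, -0.25 to -0.062 for *Vegfa*, 0.65 to 0.85 for *Vegfb*, -0.47 to -0.088 for *Angpt1* and -0.35 to -0.16 for *Angpt2*. The cause of these changes was not tested. With the replicate block, *Kdr* at WL2 against Pre became 0.044, *Vegfb* at WL2 against WL1 was 0.75 and still passed, and of the 191 list genes tested 17, 34 and 7 passed in the 3 comparisons, of which 16, 32 and 7 were among the 22, 36 and 10 that passed without it. No pairing of the libraries by replicate number was seen, though with 3 libraries per phase a check of this kind cannot exclude it. Deviations of the 9 same-numbered pairs correlated at -0.28 to 0.11, over 0.1 in 1 pair, and 0 libraries correlated best with their own number in both other phases. Over all genes, 1350, 1853 and 681 passed in the 3 comparisons with edgeR, 2344, 2717 and 1935 with DESeq2, 844, 1399 and 330 with the block, and 1861, 2119 and 1668 without a filter. At WL2 against WL1, 1051 passed with these phases alone and 426 with the covariate. Without single libraries these were 507 to 1490, 746 to 1680 and 37 to 1347.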
